A study of Homo sapiens with 4 samples.

Results

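Genes that mark the switch between epithelial and mesenchymal states were followed in human neuroendocrine tumour cells with and without siRNA knockdown of DAXX. The set held 10 genes: CDH1, CDH2, VIM, SNAI1, SNAI2, ZEB1, ZEB2, GRHL2, ESRP1 and TJP1. A probe set, the group of array probes read out together, was taken where its annotated symbol was that of a member alone, which gave 22 of the 54613 probe sets and 10 of the 19775 named genes. QGP1, a line from a neuroendocrine tumour of the pancreas, and NCI-H727, a lung carcinoid line, each gave 1 array after electroporation with siRNA against DAXX (DAXX-KD) and 1 after a negative control siRNA (control), 4 Affymetrix arrays in all, with every siRNA at a final 50 nM. The labels name 2 DAXX siRNAs without saying whether they were pooled, and give no culture or passage for any array. Their description field speaks of ALDH high QGP1 cells for all 4 samples, NCI-H727 included.

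In an epithelial cell, E-cadherin (CDH1) joins neighbouring cells at adherens junctions and ZO-1 (TJP1) ties tight junctions to actin, while GRHL2 activates epithelial genes and ESRP1 directs the epithelial pattern of splicing. SNAI1, SNAI2, ZEB1 and ZEB2 are zinc finger repressors that bind E-boxes in promoters such as that of CDH1, and their activity is classically accompanied by N-cadherin (CDH2) and the intermediate filament vimentin (VIM). N-cadherin is also a normal adhesion molecule of neural and pancreatic islet cells, so its presence in neuroendocrine cells is not by itself a mesenchymal sign.

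The microRNAs of the miR-200 family bind ZEB1 and ZEB2 messages through their seed, bases 2 to 8, and hold them down in epithelial cells. Shown here because their host transcript was on the array are the mature microRNAs made from it, on the plus strand of chromosome 12 in GRCh38.p14 (RefSeq), with the seed in capitals. They lie at chr12:6963742-6963764 and chr12:6964155-6964176, and their seeds differ from each other.
hsa-miR-200c-3p: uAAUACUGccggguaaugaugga
hsa-miR-141-3p: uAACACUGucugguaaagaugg
The host transcript MIR200CHG, looked up after the data were seen, read 6.04 in QGP1 control, 6.11 in QGP1 DAXX-KD, 5.95 in NCI-H727 control and 5.96 in NCI-H727 DAXX-KD (log2 RMA level, probe set 240284_x_at). The line difference was -0.12 (SE 0.13, limma adjusted p = 0.571). The array does not read the mature microRNAs, and the x_at suffix marks probes that can bind other transcripts.

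RefSeq promoter windows were at hand for 5 of the 10 members, and the 250 bases before the most upstream start were searched for CAGGTG, the E-box letters preferred by SNAI and ZEB proteins, on both strands. It was found in TJP1, 88 bases before the start, and in ZEB1, 57 bases before it, and not in these letters in CDH2, VIM or ZEB2; 17.5% of all 35116 windows held it. The windows of VIM, CDH2 and TJP1 are printed because these members had probe sets that differed between the lines; the E-box is in capitals. They lie at chr10:17227991-17228240 (plus strand), chr18:28177131-28177380 (minus strand) and chr15:29969050-29969299 (minus strand) of GRCh38.p14, upstream of the transcribed part.
VIM: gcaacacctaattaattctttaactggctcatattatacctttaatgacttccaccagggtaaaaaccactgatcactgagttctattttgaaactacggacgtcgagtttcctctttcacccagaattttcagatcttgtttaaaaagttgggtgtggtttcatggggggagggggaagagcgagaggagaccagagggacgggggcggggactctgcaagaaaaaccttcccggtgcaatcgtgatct
CDH2: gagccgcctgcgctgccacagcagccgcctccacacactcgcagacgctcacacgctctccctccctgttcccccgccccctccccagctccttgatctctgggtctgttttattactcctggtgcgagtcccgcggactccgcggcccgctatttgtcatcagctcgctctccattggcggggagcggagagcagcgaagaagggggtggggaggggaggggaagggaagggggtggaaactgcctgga
TJP1: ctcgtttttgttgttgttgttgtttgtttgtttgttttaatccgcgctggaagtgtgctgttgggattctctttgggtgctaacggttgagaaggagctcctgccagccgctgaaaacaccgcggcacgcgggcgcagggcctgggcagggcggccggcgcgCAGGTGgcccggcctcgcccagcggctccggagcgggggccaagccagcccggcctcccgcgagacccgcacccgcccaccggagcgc
The TJP1 and CDH2 windows were rich in G and C, at 66.8% and 66.0% of bases with 26 and 17 CpG pairs, and the VIM window had 46.0% and 8, against medians of 58.0% and 11 over all windows.

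The values are log2 RMA levels, which are relative to the other probe sets of an array. The array medians ranged from 5.31 to 5.36. The 40th percentile of probe set means, 4.85, is used below as the level under which a signal is called dim and no fold is given. Of the 22 member probe sets 13 had a mean at or above it, in 8 of the 10 genes. The knockdown left 25.7% of the DAXX signal in QGP1 and 43.3% in NCI-H727 at 1 probe set (201763_s_at), and 22.7% and 56.2% at the other (216038_x_at), so the knockdown was partial. The line names rest on the sample titles, since QGP1 stands in the source field even where the title reads NCI-H727, and markers of origin did not all go with them. NKX2-1, the lung and thyroid factor, read 8.77 and 8.38 in the control and DAXX-KD arrays labelled QGP1 and 3.35 and 3.23 in those labelled NCI-H727, while its second probe set read from 5.59 to 5.95 on all 4. GRP, a neuropeptide made by neuroendocrine cells of the airway, read 12.80 and 11.76 against 5.37 and 4.12. The islet factor NKX2-2 read 4.80 and 5.93 in the arrays labelled QGP1 and 9.17 and 9.25 in those labelled NCI-H727, whereas SST (13.83 and 13.07 against 11.87 and 11.80), PAX6 and ISL1 were higher in the arrays labelled QGP1 (limma adjusted p = 0.00733, 0.00651 and 0.0322). INS, GCG and NKX6-1 were dim on all 4 arrays. The lung markers SFTPB and SFTPC and the islet factor PDX1 did not differ between the lines. Their differences, NCI-H727 minus QGP1, were 0.040, 0.20 and 0.22 (limma adjusted p = 0.908, 0.373 and 0.291). Line names below are therefore those of the titles, and a direction between lines holds only as far as they do.

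**Figure D1:**
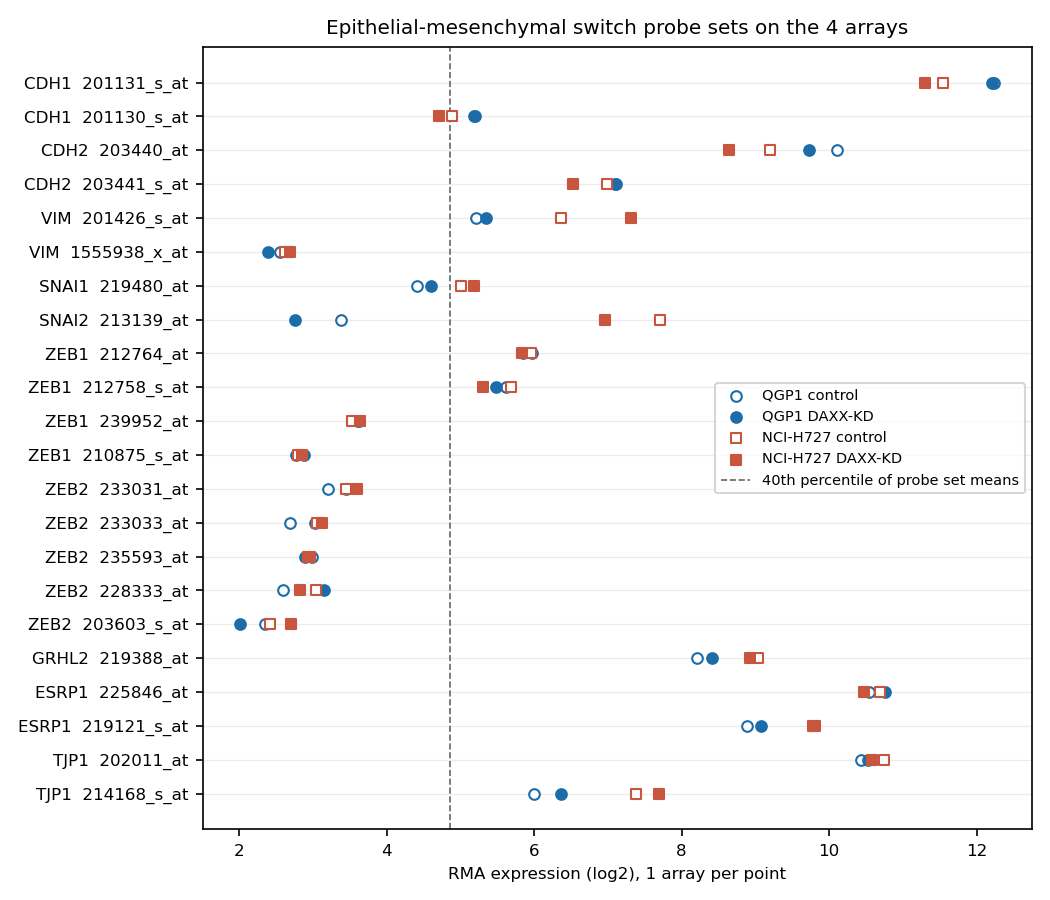
Log2 RMA level of each of the 22 member probe sets on each of the 4 arrays, 1 point per array; circles are QGP1 and squares NCI-H727, open for control and filled for DAXX-KD, and the dashed line is the 40th percentile of probe set means, 4.85. SNAI2 lies at 3.39 and 2.76 in QGP1 and at 7.70 and 6.96 in NCI-H727, all 5 ZEB2 probe sets lie left of the line on every array, and levels of different probe sets are not comparable with each other.

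The arrays of both lines carried epithelial adhesion and splicing genes well above the dim level together with N-cadherin, and the repressors SNAI2 and SNAI1 were both higher in NCI-H727, from dim QGP1 values. In the joint limma fit with treatment as a term, 8 of the 22 member probe sets differed between the lines at an adjusted p under 0.05, against 26.5% of all probe sets: 6 were higher in NCI-H727 (12.1% of all) and 2 lower (14.4% of all). Counted at the probe set of highest mean, 6 of 10 members differed, 4 higher and 2 lower, against 32.2% of all genes (15.5% higher, 16.7% lower). Leaving out 1 array cut the 8 to 1 without the QGP1 control, 3 without the QGP1 DAXX-KD, 4 without the NCI-H727 DAXX-KD and 6 without the NCI-H727 control array. Fits without 1 array, here and below, also had no treatment term. The knockdown difference of the line left with 2 arrays counted there as spread, so a lost call can reflect both changes. With 1 array per line and treatment, the joint p-values rest on how the knockdown difference varied between lines. They also borrow a prior spread from all probe sets. There are no replicates, and this spread may be technical. The levels of the lines did not overlap at 15 of the 22 probe sets, against 64.6% of all, so a lack of overlap says little here.

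**Figure D2:**
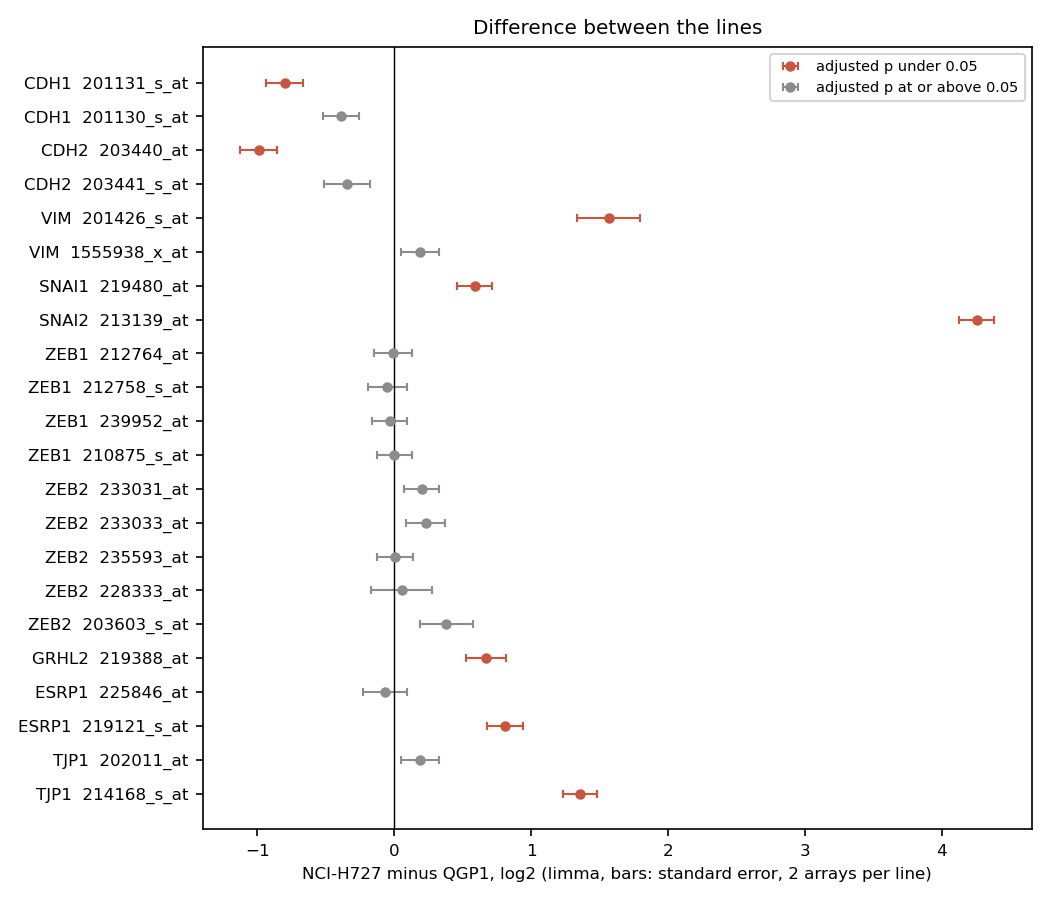
Log2 difference of NCI-H727 minus QGP1 for each member probe set from the limma fit on 4 arrays, 2 per line; points are estimates, bars their standard errors, and red marks an adjusted p under 0.05. SNAI2 stands at 4.26, VIM at 1.57 and 1 TJP1 probe set at 1.36, while CDH1 (-0.80) and CDH2 (-0.99) lie left of 0.

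Of the E-box repressors, SNAI2 and SNAI1 differed between the lines in the same direction, and ZEB1 and ZEB2 did not pass. SNAI2, called Slug, a repressor used by neural crest and basal epithelial cells, read 3.39 in QGP1 control and 2.76 in QGP1 DAXX-KD, both dim, and 7.70 and 6.96 in NCI-H727. Both NCI-H727 arrays were high and both QGP1 arrays low, with a fitted difference of 4.26 (SE 0.13, limma adjusted p = 0.000273). Since the QGP1 side was dim, the size of this difference is uncertain and no fold is given. This call held when any 1 array was left out, with the difference between 3.88 and 4.63 over all alternatives. SNAI1, called Snail, the closest relative of SNAI2 in the set, read 4.41 and 4.60 in QGP1, both dim, and 5.01 and 5.18 in NCI-H727. It was higher in NCI-H727 by 0.59 (SE 0.13, limma adjusted p = 0.0318), and the call was lost without any 1 of the 4 arrays (adjusted p from 0.0652 to 0.17).

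ZEB1 showed no call at any of its 4 probe sets. The brightest (212764_at) read 5.84 and 5.96 in QGP1 and 5.96 and 5.83 in NCI-H727, with the arrays of the lines interleaved and a difference of -0.0075 (SE 0.14). The next (212758_s_at) read 5.62, 5.49, 5.69 and 5.31 in the same order, and the other 2 stayed between 2.77 and 3.63. ZEB2 was dim on all 4 arrays at all 5 of its probe sets, which ranged from 2.01 to 3.59, with line differences from 0.0068 to 0.38 and 0 called. These arrays give no measured level for ZEB2 beyond that it was dim.

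Both cadherins were bright, and both were lower in NCI-H727. CDH1 at its main probe set (201131_s_at) read 12.24 in QGP1 control, 12.21 in QGP1 DAXX-KD, 11.55 in NCI-H727 control and 11.30 in NCI-H727 DAXX-KD. The difference was -0.80 (SE 0.14, limma adjusted p = 0.0165), a 1.74-fold lower level, and the call was lost without either QGP1 array (adjusted p = 0.0915 and 0.0855). Its second probe set (201130_s_at), between 4.71 and 5.19, was lower in NCI-H727 by a value that did not pass (-0.39, SE 0.13, limma adjusted p = 0.109).

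CDH2 (203440_at) read 10.11 and 9.72 in QGP1 and 9.20 and 8.64 in NCI-H727. It was lower in NCI-H727 by 0.99 on the log2 scale (limma estimate -0.99, SE 0.13, adjusted p = 0.0086), or 1.99-fold. The call was lost without either QGP1 array (adjusted p = 0.196 and 0.103) and without the NCI-H727 DAXX-KD array (0.128). The second probe set (203441_s_at) read 7.10, 7.11, 6.99 and 6.53, and its difference of -0.34 (SE 0.17, limma adjusted p = 0.223) did not pass. Both cadherins thus differed in the same direction.

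Vimentin differed in the same direction as SNAI2. VIM (201426_s_at) read 5.21 and 5.34 in QGP1 and 6.37 and 7.32 in NCI-H727, every NCI-H727 value above both QGP1 values. It was 2.96-fold higher in NCI-H727 (1.57, SE 0.23, limma adjusted p = 0.011), and 2.23-fold in the control arrays alone. The call was lost without either QGP1 array (adjusted p = 0.144 and 0.127). The second VIM probe set (1555938_x_at) was dim on all 4 arrays, between 2.38 and 2.69. Fibroblast markers were looked at beside it: 0 of 7 differed between the lines, against 32.2% of all genes. Of the 7, 3 were dim on all 4 arrays. With the probe sets of each gene averaged, 1 of the 7 was lower in NCI-H727, against 36.6% of all genes called in either direction. With 7 genes these counts say little. The list mean was 5.06 and 5.03 in QGP1 and 5.18 and 5.17 in NCI-H727. The part of these markers in the VIM difference was not tested.

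The guardians of the epithelial state were present in both lines. GRHL2 (219388_at), the grainyhead factor that binds epithelial enhancers, read 8.21 and 8.41 in QGP1 and 9.03 and 8.92 in NCI-H727. It was 1.59-fold higher in NCI-H727 (0.67, SE 0.15, limma adjusted p = 0.0332), a call lost without any 1 of the 4 arrays (adjusted p from 0.0645 to 0.118). The direction was thus the same as that of SNAI2 and VIM.

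ESRP1, whose product controls alternative exons of adhesion and receptor genes, gave an answer that depended on the probe set. At 225846_at it read 10.54, 10.75, 10.69 and 10.48 with the lines overlapping (difference -0.066, SE 0.16, limma adjusted p = 0.817). At 219121_s_at it read 8.89 and 9.08 in QGP1 and 9.78 and 9.81 in NCI-H727, 1.75-fold higher (0.81, SE 0.13, limma adjusted p = 0.0145; lost without the QGP1 control array at 0.0718 and without the NCI-H727 DAXX-KD array at 0.0517).

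TJP1 split in the same way. The brighter probe set (202011_at) read 10.43, 10.52, 10.74 and 10.58 (difference 0.19, SE 0.14, limma adjusted p = 0.402). The other (214168_s_at) read 6.0 and 6.36 in QGP1 and 7.38 and 7.69 in NCI-H727, 2.56-fold higher (1.36, SE 0.13, limma adjusted p = 0.00334; 0.0533 without the QGP1 control array). Averaged over its probe sets TJP1 passed (0.77, limma adjusted p = 0.00471). Probe sets of a gene can read different transcript ends or variants, and which transcripts these read was not tested.

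After DAXX knockdown 0 of the 22 member probe sets differed by 2-fold or more in either line, against 0.306% of all probe sets in QGP1 and 1.16% in NCI-H727. At 1.5-fold there were 1 in QGP1 (2.93% of all) and 2 in NCI-H727 (5.74% of all). The median difference, DAXX-KD minus control, over the 22 was 0.10 in QGP1 and -0.040 in NCI-H727, beside -0.0035 and 0.019 over all probe sets. There were 7 probe sets higher in both lines, 4 lower in both and 11 with opposite signs. The same split was not counted over all probe sets, so it is not read as a trait of the members. Each line has 1 array per condition, so no test within a line was possible.

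**Figure D3:**
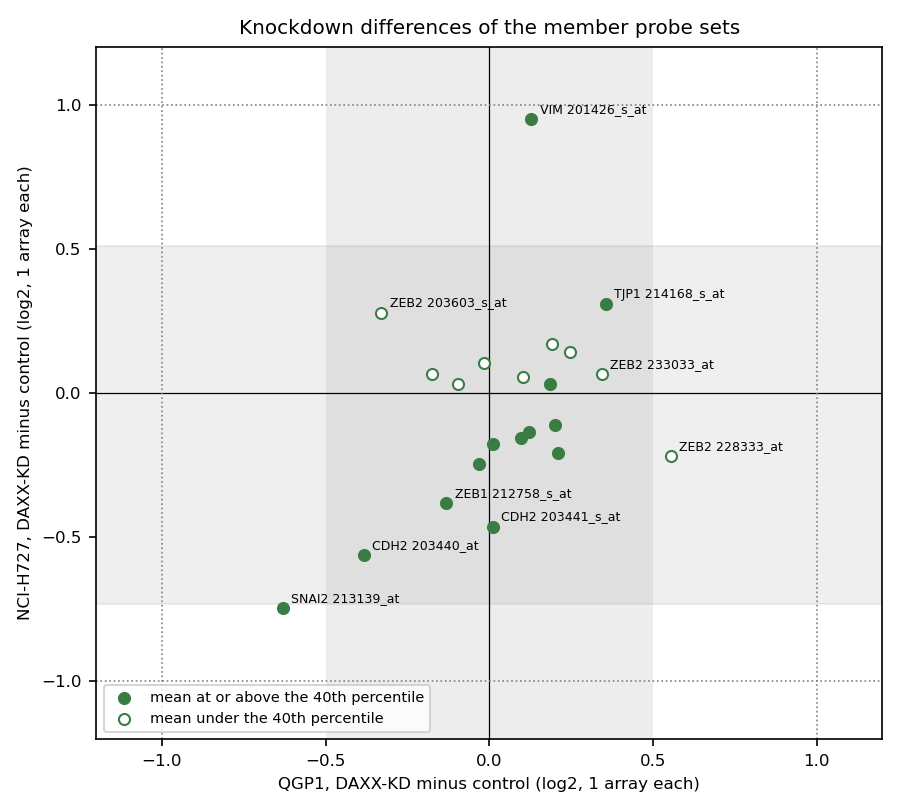
Log2 level in DAXX-KD less that in control for QGP1 (horizontal) and NCI-H727 (vertical), 1 array per condition, for the 22 member probe sets, open where the mean over the 4 arrays was under 4.85; grey bands hold the central 95% of all probe sets in each line and dotted lines mark 2-fold. SNAI2 sits at -0.63 and -0.75, VIM at 0.13 and 0.95, and 0 points lie outside the dotted lines.

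SNAI2 had the lowest joint p of the members. After knockdown it read lower in each line, by -0.63 in QGP1, between dim values, and by -0.75 in NCI-H727, a 1.68-fold step. The joint limma difference was -0.69 (SE 0.13, lower in 2 of 2 lines), adjusted p = 0.979. CDH2 was lower in both lines at its main probe set, by -0.38 in QGP1 and -0.56 in NCI-H727 (joint limma difference -0.47, SE 0.13, lower in 2 of 2 lines, adjusted p = 0.979). Its second probe set gave 0.011 and -0.46.

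The VIM difference was 0.13 in QGP1 and 0.95 in NCI-H727, where it was 1.93-fold higher, the member with the greatest knockdown difference in either line. After a second quantile normalization of the arrays it passed 2-fold in NCI-H727. The joint limma difference was 0.54 (SE 0.23, adjusted p = 0.979). The central 95% of all probe sets lay between -0.50 and 0.50 in QGP1 and between -0.73 and 0.51 in NCI-H727, so the VIM and SNAI2 values of NCI-H727 lay outside that range and so did SNAI2 and 1 dim ZEB2 probe set (0.56) in QGP1.

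The epithelial members had small knockdown differences. For CDH1 the values were -0.031 in QGP1 and -0.25 in NCI-H727, and GRHL2 by 0.20 and -0.11. ESRP1 differed by 0.21 and -0.21 at its brighter probe set and by 0.19 and 0.032 at the other. TJP1 differed by 0.096 and -0.16 at the brighter and by 0.36 and 0.31 at the other, higher in both lines. SNAI1 differed by 0.19 and 0.17, and the brightest ZEB1 probe set by 0.12 and -0.13.

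In the joint limma fit of knockdown 0 of the 22 passed, and 0% of all probe sets did. At an unadjusted p under 0.05 there were 2 members, SNAI2 and CDH2, against 4.86% of all probe sets, and the smallest adjusted p over all probe sets was 0.979. With no line term 0 members passed either.

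Of 42 epithelial genes listed, 37 had a probe set of their own, all with a mean above the dim level. In NCI-H727 9 were higher and 9 lower than in QGP1 and 19 did not pass, against 32.2% called over all genes; the list median was -0.12 and that of all genes 0.061. Of the 4 keratins on the list, which fill simple epithelia, 3 were higher in NCI-H727: KRT19 by 3.48 (11.2-fold), KRT8 by 1.54 (2.91-fold) and KRT18 by 0.68, while KRT7 (0.42, limma adjusted p = 0.0776) did not pass. KRT18 and KRT7 were added after their values were seen. GRHL3, a relative of GRHL2, was higher by 1.65, from dim values in QGP1. MUC1, a membrane mucin of apical surfaces, was lower in NCI-H727 by a difference of -3.18 (9.07-fold) and EHF, an epithelial ETS factor, by -2.03 (4.07-fold). KRT19, KRT8, GRHL3, MUC1 and EHF each had a limma adjusted p between 0.000371 and 0.00276.

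Of 30 mesenchymal genes 28 were measured and 11 of them were dim by their mean. In NCI-H727 4 were higher, 7 lower and 17 did not pass, with a median of 0.21; the 39.3% called compares with 32.2% of all genes. TPM2, a muscle-type tropomyosin, differed by 5.87 and NT5E, the ecto-nucleotidase CD73, by 5.25, both from dim QGP1 values, and S100A4, a calcium-binding protein of motile cells, by 5.62 (49.3-fold higher). Second probe sets of TPM2 showed 0.096 and 0.32, which did not pass, and 1.13, which did (limma adjusted p = 0.0176). All 4 of NT5E passed. MMP2, a gelatinase (-3.51, 11.4-fold lower), and the neural adhesion molecule L1CAM (-3.45) were lower in NCI-H727, the second L1CAM probe set showing 0.014. FN1, fibronectin, named below for its knockdown difference, was 5.50-fold higher at its brightest probe set (2.46). The other 5 lower genes were LOX (-3.38), TNC (-2.95), MSN (-2.72), NCAM1 (-2.64) and CALD1 (-1.08), of which all but CALD1 are given after their values were seen. LOX and TNC were dim in NCI-H727, so the size of their differences is uncertain. The mesenchymal list therefore held large differences in both directions.

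Regulators of the switch had the largest share of calls of the 3 lists: of 33 measured among 34 listed, 13 were higher in NCI-H727, 8 lower and 12 did not pass (median -0.011). That is 63.6% called, beside 32.2% of all genes. Among genes with a mean at or above the dim level it was 74.1%, beside 40.5%. The 3 lists were chosen with earlier results of these data known, so this share describes the list and nothing more. TGFBR2, a receptor of TGF-beta, was higher by 4.31 (19.8-fold), SMAD7, an inhibitor of that pathway, by 2.89 (7.40-fold) and LATS2, a Hippo kinase, by 2.83 (7.11-fold). TCF4, an E-box factor, differed by 3.10 from dim QGP1 values. SOX9, a progenitor factor of pancreatic ducts, was lower in NCI-H727 (-4.82), its DAXX-KD value 5.02 and its control value 4.77, the last dim. All 5 had limma adjusted p-values between 0.000228 and 0.00213.

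**Figure D4:**
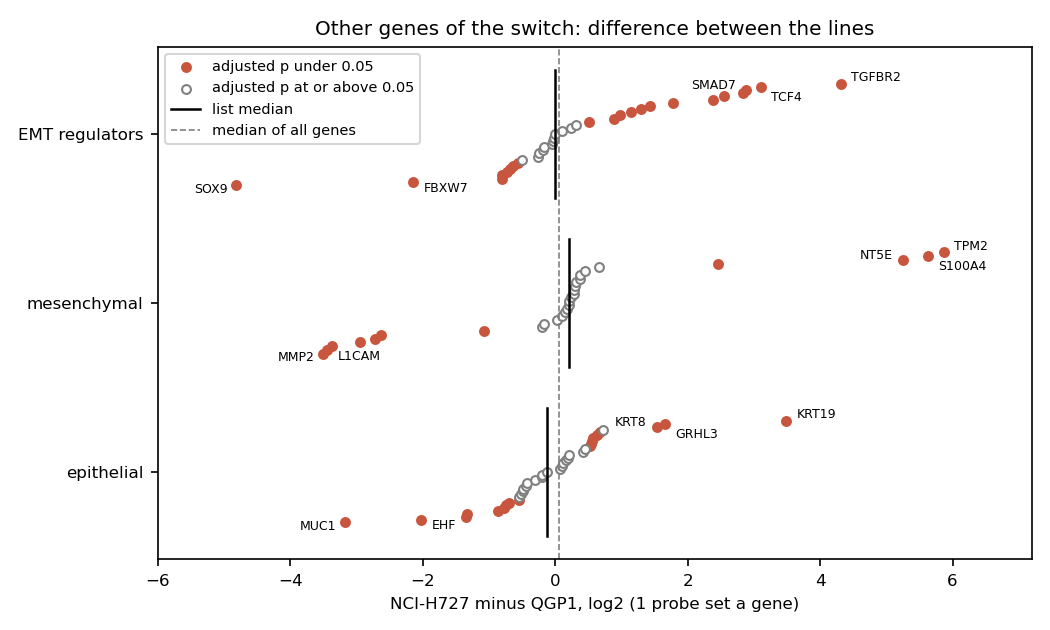
Log2 difference of NCI-H727 minus QGP1 (limma, 2 arrays per line) for the measured genes of the epithelial, mesenchymal and regulator lists, 1 point per gene at its probe set of highest mean; red points have an adjusted p under 0.05, black bars are list medians and the dashed line is the median of all genes, 0.061. Each list spreads to both sides, from MUC1 (-3.18) to KRT19 (3.48), from MMP2 (-3.51) to TPM2 (5.87) and from SOX9 (-4.82) to TGFBR2 (4.31).

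Knockdown differences in the lists were small. At 2-fold there was 1 gene, AP1M2, an epithelial clathrin adaptor, at -1.03 in NCI-H727 (second probe set -1.14) and -0.21 in QGP1; 1.19% of all genes passed 2-fold in NCI-H727 and 0.445% in QGP1. At 1.5-fold 5 more passed, DSP, FN1, TGFB2, QKI and FOXC2, in NCI-H727 (5.51% of all genes) and LATS2 in QGP1 (3.0%). DSP, desmoplakin of desmosomes, had -0.42 in QGP1 and -0.59 in NCI-H727, CDS1, a lipid synthase, by 0.32 and 0.41, CGN, cingulin of tight junctions, by 0.30 and -0.41, and GRHL3 by -0.19 and -0.47. FN1 differed by -0.38 and -0.80. At the other FN1 probe sets above the dim level on all 4 arrays the values were -0.42 and -0.62 (216442_x_at), 0.27 and -0.88 (212464_s_at), and 0.11 and -0.083 (214701_s_at). AXL, a receptor kinase, differed by 0.50 and -0.29, MMP14, a membrane protease, by -0.38 and 0.31, POSTN, periostin, by 0.033 and -0.53, dim throughout, and CALD1, caldesmon, by -0.17 and -0.50. Other MMP14 probe sets above the dim level gave 0.13 and -0.0042 (202828_s_at) and -0.019 and 0.34 (217279_x_at).

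Among regulators TGFB2, a TGF-beta ligand, had a difference of -0.34 in QGP1 and 0.90 in NCI-H727, and its second probe set had 0.26 and 0.32, of opposite sign in QGP1. LATS2 had 0.81 and 0.030, FOXC2, a mesenchymal forkhead factor, by -0.010 and -0.78, and QKI, a splicing factor that promotes circular RNAs in mesenchymal cells, by 0.32 and 0.68. The FOXC2 values in QGP1 were dim, and its second probe set, dim on every array, gave 0.18 and 0.21. TGFBR1 differed by -0.44 and -0.54, and SMAD3, a TGF-beta effector, by 0.37 and -0.24. Other SMAD3 probe sets above the dim level on all 4 arrays gave -0.00099 and -0.14 (205398_s_at) and -0.33 and -0.0049 (205397_x_at). In the joint limma fit 0 genes of any list passed.

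Genes of like pattern were sought for the 3 members with the widest line difference at their probe set of highest mean, as the smallest Euclidean distance between the centred values of 4 arrays among 14647 genes. Nearest to SNAI2 were CYP1B1 (distance 0.273), SERPINF1 (0.329) and CDH7 (0.387). Nearest to VIM were SAR1A (0.203), SEC23A (0.212) and WNT7B (0.24), and nearest to CDH2 were SDAD1 (0.0217), ADAT2 (0.0802) and DIAPH3 (0.0931). With 4 arrays this describes these samples and nothing more.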

How the data were processed

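Total RNA of 4 samples was measured on 4 one-colour Affymetrix arrays. The deposited log2 values are RMA output by the authors; the submitters' processing notes list affy 1.40.0 and R 3.0.3. RMA subtracts background, quantile-normalizes arrays and summarises probes. Quantile normalization removes a shift shared by most genes, and RMA compresses differences of dim probe sets. Groups came from the titles. Gene names came from the platform's annotation table, where 41091 probe sets had 1 symbol, 1801 several and 11721 none.

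All 54613 probe sets were fitted in limma 3.58.1 (R 4.3.3) with line and treatment as terms, with 1 residual and 3.54 prior degrees of freedom; tests were two-sided, and p-values were adjusted by Benjamini-Hochberg with a threshold of 0.05. In simulated data of this design and 54613 features it called 84 of 100 line differences of 2 and 1 of 100 of 1, and 60 and 1 for knockdown. False calls numbered 9 for line and 4 for knockdown. Few features were changed there, while 26.5% of all probe sets were called between the lines here. The adjustment was therefore stricter in the simulation, which does not give the share of line differences found in these arrays. A gene outside the member set was read at its probe set of highest mean. Named were all members and, per list, the 5 widest called line differences and the 3 widest knockdown differences in each line, and genes of like pattern; second probe sets, origin markers, MIR200CHG and the genes so described in the text were picked after their values were seen. The members and lists were chosen with earlier results of these data known. The number of arrays limits the precision.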

Additional observations from a re-analysis of the deposited data

Results flagged for a closer look

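The knockdown differences of 3 member probe sets had opposite signs in the lines, each past 1.1-fold, with 1 array per condition, and the difference between lines was not tested. ZEB2 at 228333_at had 0.56 in QGP1 and -0.22 in NCI-H727, a gap of -0.77 between dim values. ZEB2 at 203603_s_at differed by -0.33 and 0.28, a gap of 0.61, also dim. ESRP1 at 225846_at differed by 0.21 and -0.21, a gap of -0.42.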

How the results depend on the processing

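Line calls depended on the arrays: with 8 member probe sets called on all 4, leaving out 1 array gave from 1 to 6, and a line left with 1 array is assumed to vary like the other. The fits without 1 array also had no treatment term, so both the arrays and the model changed. Other normalizations, the trend prior and the fit of all 4 arrays with no treatment term gave 8. At 1.5-fold 1 probe set in QGP1 and 2 in NCI-H727 passed after knockdown, and 1 in NCI-H727 at 2-fold after a second quantile normalization. Signs turned for values not called. ZEB1 line differences were 0.0077 (212764_at) and -0.0090 (210875_s_at) after that normalization and -0.026 (210875_s_at) with median centring, and ranged without 1 array from -0.075 to 0.060 (212764_at), -0.24 to 0.14 (212758_s_at), -0.086 to 0.017 (239952_at) and -0.051 to 0.051 (210875_s_at). ZEB2 was -0.0034 and -0.019 (235593_at), and without 1 array -0.042 to 0.055 (235593_at) and -0.22 to 0.33 (228333_at). ESRP1 (225846_at) was 0.37 with the mean of probe sets and -0.17 to 0.039 without 1 array. The joint TJP1 knockdown difference was 0.15 with the mean of probe sets. The causes were not tested. The joint knockdown fit compares DAXX-KD with control within each line through its line term; with and without that term 0 member probe sets passed.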
